A study of Drosophila melanogaster with 6 samples.

Results

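The serpin family of Drosophila melanogaster was taken as every gene of the Release 6 RefSeq annotation whose symbol starts with Spn and a digit, together with nec. The rule found 28 genes, of which 27 had a transcript in the deposited tables and are counted among 16196 genes in all. The gene without one was Spn28Db, which is not analysed here. Averaged over the 6 libraries, 16 serpins reached 1 CPM (counts per 1000000) and are called measured below, as did 11599 genes in all.

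Whole larvae at the 3rd instar, on day 4 after egg laying, were profiled by RNA sequencing, with 1 library per genotype. The control, titled Wild Type, had the genotype Tublin Gal4/S-T. The strains C1 to C5 had the genotypes Tublin Gal4; UAS-C1, Tublin Gal4; UAS-C2, Tublin Gal4; UAS-C3, Tublin Gal4; UAS-C4 and Tublin Gal4; UAS-C5. Each carried a single copy of a gene of the newt Notophthalmus viridescens behind UAS, placed by phiC31 integrase with pUAST-attB. All 6 libraries shared the Gal4 driver, whose tubulin promoter is active in nearly all cells. How many larvae made up a library is not given in the sources used here. A difference between a pair of libraries had no replicate check and no p-value, and compares libraries, not conditions.

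Serpins are a family of protease inhibitors. An inhibitory serpin offers an exposed reactive centre loop to a serine protease, is cut there, and traps the enzyme in a covalent complex that destroys both. In insect haemolymph such inhibitors hold back the protease cascades that activate the Toll ligand Spätzle and those that activate prophenoloxidase, the enzyme of melanization. Other family members act inside the secretory pathway or pass into seminal fluid, and the substrates of many are not known.

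Library totals on genes lay between 75070322 counts (C2) and 86894127 (C1). RNA of larval testis separated the libraries. The 10 genes of a testis marker list summed to 1278 CPM in the control and 2716 in C4, but to 6.51 to 11.4 CPM in C1, C2, C3 and C5. betaTub85D, the testis beta tubulin, had 244 CPM in the control, 535 CPM for C4 and no more than 0.922 elsewhere. In whole larvae, fewer cells of a type and less RNA per cell cannot be told apart. For testis RNA, a different share of male larvae cannot be told apart from these either. Each comparison of C1, C2, C3 or C5 with the control is thus also one between libraries with little and with much testis RNA. Genes of fat body, haemocytes, trachea, midgut and muscle were present in every library, as were cuticle genes.

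Serpin RNA made up 0.0989% of the counts in the control. It was 0.129% for C1, 0.0881% for C2, 0.198% for C3, 0.176% for C4 and 0.115% for C5. On the CPM scale the family summed to 904 in the control, with C1 at 1351, C2 at 990, C3 at 1986, C4 at 1477 and C5 at 1267. Without Spn100A the sums were 851, 1248, 975, 1464, 851 and 1217 CPM in the same order. The sum of C4 was thus above the control only with Spn100A, which held 42.4% of the serpin counts of C4.

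**Figure D1:**
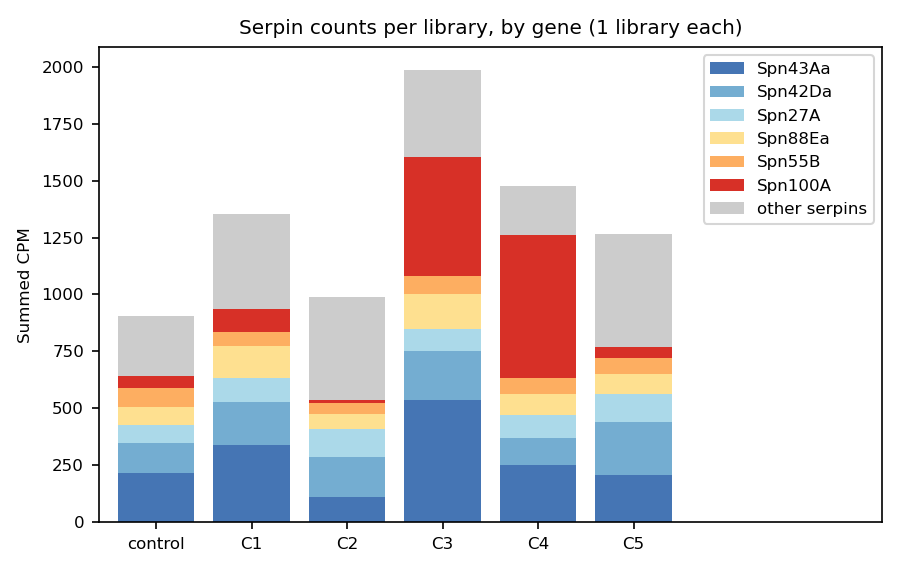
Stacked bars give the summed CPM of 27 serpin genes in each of the 6 libraries, 1 bar per library, with the 6 genes drawn separately in colour and the others in grey. The block of Spn100A reaches 522 CPM in C3 and 626 CPM in C4 and is 103 CPM or less in the other libraries.

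Levels between genes were compared per length, with the authors' RPKM values summed over the transcripts of a gene. By the median over the 6 libraries Spn43Aa was the most abundant serpin, at 186 RPKM (68.1 to 365). Spn42Da followed at 96.2 RPKM (81.2 to 120), then Spn27A at 57.01 (50.5 to 66.4) and Spn88Ea at 56.4 (35.2 to 88.2). The ranges of Spn43Aa and Spn42Da overlapped, and in C2 Spn42Da was the higher (90.4 against 68.1 RPKM). In C4 Spn100A exceeded Spn43Aa (328 against 206 RPKM). Spn27A and Spn88Ea also had overlapping ranges and cannot be placed in order. Spn42Dd (50.1), Spn55B (48.6), nec (36.5), Spn100A (34.5) and Spn43Ab (33.8) had medians in the next group, again with overlapping ranges. Spn100A had the widest range, from 5.65 to 328 RPKM. The measured serpins with the lowest median RPKM were Spn47C (5.44), Spn42Db (4.55) and Spn42De (1.56), and the 11 serpins below 1 CPM had medians of 0.426 RPKM or less.

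The library of each strain was compared with the control library for the level of each serpin. With 1 library per genotype, an effect of the newt gene cannot be singled out. A gene counted as higher or lower when its TMM-scaled fold was at least 2 and the exact 95% Clopper-Pearson interval of the ratio excluded 1. TMM scaling corrects library totals for differences in composition. Of the 16 measured serpins, 8 passed in at least 1 strain and 8 in none, while 38.0% of all measured genes passed in at least 1. That share includes testis genes, which were lower in C1, C2, C3 and C5. The interval covers counting error only.

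In C1, 1 serpin was higher (Spn43Ab) and 0 lower, beside 5.10% and 18.0% of all measured genes. In C2, 3 were higher (Spn43Ab, nec, Spn42De) and 1 lower (Spn100A), beside 8.94% and 20.0%. In C3, 4 were higher (Spn100A, Spn43Aa, Spn42Dd, Spn88Ea) and 0 lower, beside 6.02% and 21.8%. In C4 only Spn100A was higher and 0 were lower, beside 8.97% and 3.16%. In C5, 4 were higher (Spn43Ab, Spn42Dd, nec, Spn88Eb) and 0 lower, beside 4.83% and 18.6%. The background of lower genes in C1, C2, C3 and C5 holds many testis genes. A set of 9988 genes that averaged 1 CPM or more over those 4 libraries was chosen after seeing the data and keeps all 16 serpins. In it 4.56%, 6.94%, 9.08%, 3.63% and 5.26% of genes were lower in C1 to C5, and 6.24%, 10.7%, 7.19%, 3.94% and 5.85% higher.

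**Figure D2:**
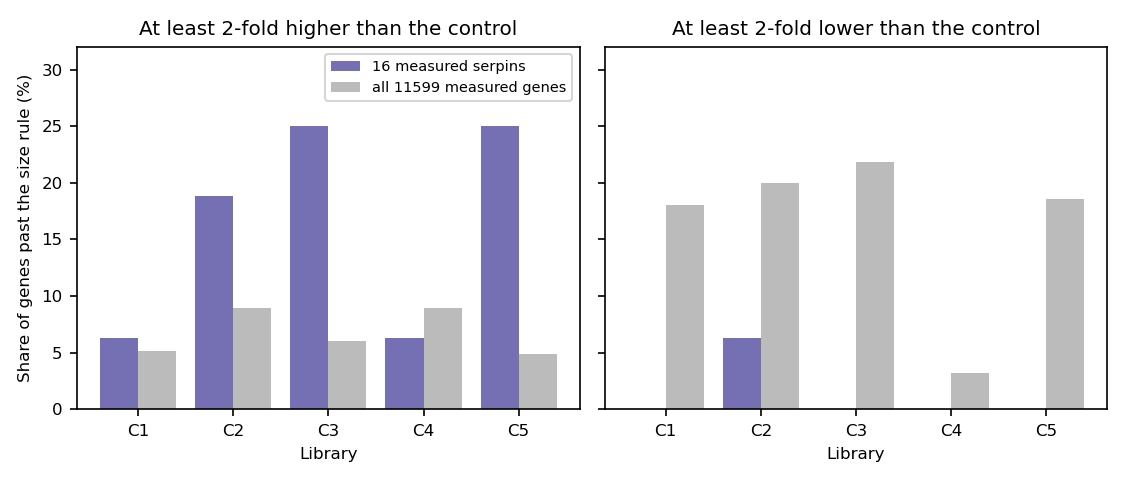
Bars give the share of genes, in percent, that were at least 2-fold higher (left) or lower (right) than the control in each strain, for the 16 measured serpins and for all 11599 measured genes. The serpin share of higher genes is 25.0% in C3 and C5 against 6.02% and 4.83% of all genes, and the only serpin on the lower side is 1 gene in C2.

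The median log2 ratios of the 16 serpins to the control were 0.60, 0.42, 0.61, -0.01 and 0.49 from C1 to C5. Over all measured genes the medians were 0.05, -0.03, -0.01, 0.06 and 0.03. In the set of 9988 genes they were 0.13, 0.07, 0.08, -0.01 and 0.11. Ratios above 1 were found for 13 of the 16 serpins in C1, and for 12, 11, 7 and 11 in C2 to C5. The 5 comparisons share the control library, so these counts are not independent of each other. Plain CPM, which uses library totals alone, shifts every log2 ratio of a strain alike, by -0.20, -0.30, -0.13, 0.12 and -0.27 from C1 to C5, and the serpin medians then became 0.40, 0.12, 0.48, 0.11 and 0.22. Several calls lie near 2-fold and depend on that choice. With plain CPM C2 had 1 serpin higher and 3 lower, in place of 3 and 1, since Spn43Aa (log2 ratio -1.27) and Spn55B (-1.14) joined Spn100A.

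**Figure D3:**
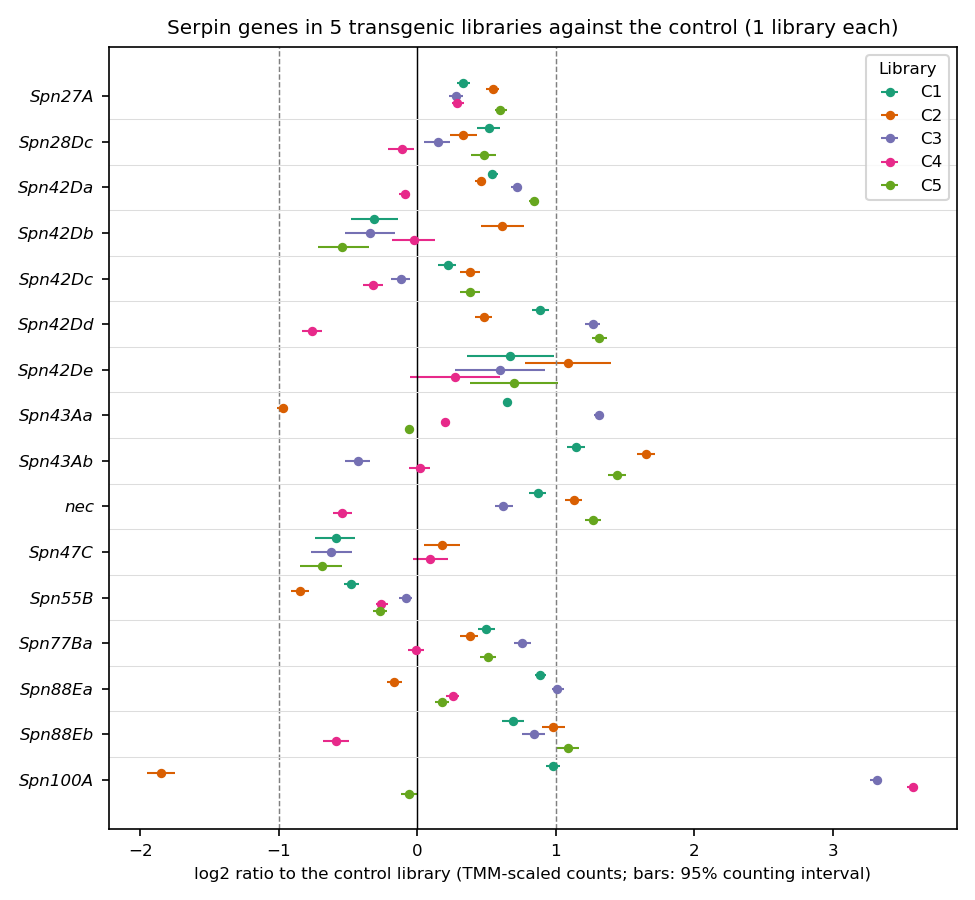
Points give the log2 ratio of each strain's library to the control for the 16 measured serpins, with bars for the 95% counting interval, and dashed lines mark a 2-fold difference. Most points lie between the dashed lines, and Spn100A spans from -1.85 in C2 to 3.58 in C4.

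Among the serpins known to hold back Toll signalling or melanization, 6 were measured. nec encodes Necrotic, which in flies restrains the Toll activation set off by the protease Persephone (chromosome 2R, 7156477 to 7158241). It stood at 40.6 CPM in the control, with C1 at 74.5, C2 at 88.97, C3 at 62.6, C4 at 27.96 and C5 at 98.1. C4 was thus the only strain below the control. The ratio was 2.19-fold in C2 (log2 interval 1.07 to 1.19) and 2.41-fold in C5 (1.21 to 1.33), and both calls were lost with plain CPM (log2 ratios 0.83 and 1.00, just under the threshold).

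The libraries ordered by nec, from C4 over the control, C3, C1 and C2 to C5, were in the same order by the summed CPM of 8 fat body genes. That sum was 52578 in C4, 94727 in the control, 97684 in C3, 129427 in C1, 149535 in C2 and 152185 in C5. Fat body secretes most haemolymph proteins. The sum is led by a few storage proteins, and 0 of the 8 genes had that order singly. The match was picked out of 16 lists after the orders were seen. No gene of that list was at 0 in any library, and its part in the level of nec was not tested.

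Spn42Dd, also called Spn1, is known as a negative regulator of Toll signalling (2R, 6883280 to 6884873). Its levels were 44.2 CPM in the control, with C1 at 82.03, C2 at 61.7, C3 at 106, C4 at 26.2 and C5 at 109.9. C4 was again the lowest library, and C3 and C5 the highest. The ratio was 2.40-fold in C3 (log2 interval 1.21 to 1.32) and 2.48-fold in C5 (1.26 to 1.37), and both held under each scaling tried. Exons of its neighbour Spn42Dc overlap those of Spn42Dd on the same strand by 63 bases, so reads there could not be separated.

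Spn88Ea, or Spn5, is needed for wing unfolding and restrains Toll signalling (3R, 15203069 to 15206447). It stood at 75.9 CPM in the control, with C1 at 141, C2 at 67.6, C3 at 153, C4 at 90.6 and C5 at 86.01. The C3 ratio of 2.02-fold (log2 interval 0.97 to 1.06) reaches the threshold only within counting error, and was 0.88 on the log2 scale with plain CPM.

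The other 3 did not reach 2-fold in any strain. Spn27A inhibits the protease Easter in the embryo and limits melanization in haemolymph, and had the narrowest range of the 16. It had its lowest level in the control (81.6 CPM) and its highest in C5 (124), a 1.52-fold range, and 30.7% of all measured genes had a smaller one. Spn28Dc, which limits phenoloxidase activity, lay between 18.5 CPM (C4) and 28.7 (C1). Spn77Ba, which limits melanization in the tracheae, lay between 45.4 CPM (C4) and 77.1 (C3), and its levels in C4 and the control (45.6) were within counting error of each other. The sum of 7 tracheal genes ranged from 722 CPM in the control to 1200 in C2, where dpy alone held 551. The median log2 ratio of the 7 genes to the control was 0.05 in C2 and 0.52 in C3.

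Spn100A differed most between libraries. Its substrate is not named in the sources used here (3R, 30690642 to 30692768, plus strand, with 1 RefSeq transcript). It had 52.4 CPM in the control, with C1 at 103, C2 at 14.5, C3 at 522, C4 at 626 and C5 at 50.2. C3 and C4 stood apart from the other 4 libraries. The ratio to the control was 9.97-fold in C3 (log2 interval 3.27 to 3.36) and 11.96-fold in C4 (3.54 to 3.62), and 3.61-fold lower in C2 (-1.95 to -1.75). C1 stayed just under the threshold at a log2 ratio of 0.98, and C5 was within counting error of the control.

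These 3 calls held under each scaling, filter and fold threshold tried. The highest library exceeded the lowest 43.1-fold, and 84.9% of all measured genes, the testis genes included, had a smaller range. Over the 16 serpins the median range was 2.17-fold, beside 1.93-fold over all measured genes. Eig71Ea, a gene of late salivary glands, was high in the same pair of libraries, with 336 CPM in C3 and 391 in C4 against 1.64 in the control, 4.06 in C1, 2.78 in C2 and 3.43 in C5. Eig71Ee of the same gene cluster ran the other way, with C3 (88.6 CPM) and C4 (1595) as its lowest libraries and 5473 CPM in the control. The sum of 9 salivary gland genes includes Eig71Ee. It was 889 CPM in C3 and 20823 in C4, against 24166 in the control and 22598 to 48812 in C1, C2 and C5. The glue gene Sgs3 stood at 126 CPM in C3, but at 5157 in C4, near the 5560 of the control. The median log2 ratio of the 9 genes to the control was -5.49 in C3 and -0.10 in C4. The part of salivary gland RNA in the level of Spn100A was not tested.

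**Figure D4:**
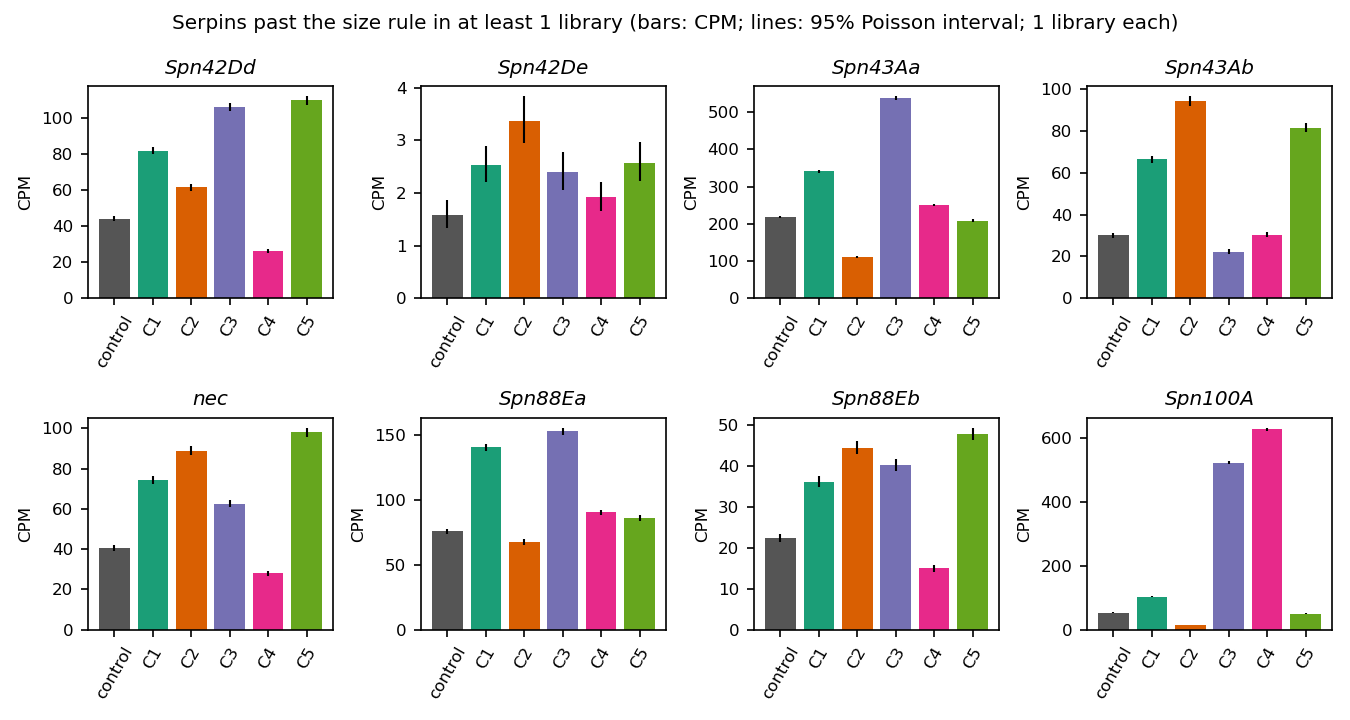
Bars give the CPM of the 8 serpins that passed the size rule in at least 1 strain, by library, with lines for the exact 95% Poisson interval of the count. C3 and C4 stand out in Spn100A, C1, C2 and C5 in Spn43Ab, and C4 is the lowest library in nec, Spn42Dd and Spn88Eb.

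The 4 genes of the 43A cluster on 2R lie side by side, yet had different patterns. Spn43Aa (7147692 to 7149289), the serpin with the highest median RPKM, stood at 218 CPM in the control, with C1 at 342, C2 at 111, C3 at 538, C4 at 250.4 and C5 at 209. It was lowest in C2 and highest in C3, where the ratio was 2.47-fold (log2 interval 1.28 to 1.33). In C2 the log2 ratio was -0.97, just inside the threshold.

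Spn43Ab, 2372 bases further along (7151662 to 7153642), had another order. It stood at 30.1 CPM in the control, with C1 at 66.6, C2 at 94.5, C3 at 22.3, C4 at 30.4 and C5 at 81.7. C1, C2 and C5 were high, and the control and C4 were within counting error. The ratio was 2.21-fold in C1 (log2 interval 1.08 to 1.21), 3.14-fold in C2 (1.59 to 1.72) and 2.72-fold in C5 (1.38 to 1.51). The call in C1 was lost with plain CPM (0.95), and those in C2 and C5 held.

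The same 3 libraries had the highest sums in 5 of the 16 gene lists, those of fat body, haemocytes, midgut, muscle and clotting. The clotting list shares 4 genes with the fat body list. The margin was small for muscle (5003 CPM in C1, 4947 in the control) and for midgut (712 in C2, 697 in C3). The 12 haemocyte genes stood at 717 CPM in C1, 769 in C2 and 780 in C5, against 426 in the control, 392 in C3 and 358 in C4. Haemocytes are the larval blood cells. Taken singly, 7 of the 12 genes were higher in each of C1, C2 and C5 than in the other libraries, while NimC1 had 11.6 CPM in C2 and 16.8 in C5 against 17.6 in the control. No haemocyte gene was at 0 in any library, and their part in the level of Spn43Ab was not tested.

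Spn43Ad, between Spn43Ab and nec, was close to silent. It had 43 counts in the control, with C1 at 47, C2 at 68, C3 at 13, C4 at 50 and C5 at 53, and did not reach 1 CPM on average. The 3 genes from Spn43Ab to nec share the minus strand, and all 3 lie within pk, with no exon in common. Their highest libraries were C2, C2 and C5.

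The 42D cluster holds 5 serpin genes in a row on 2R. Spn42Da, or Spn4, is known as an inhibitor of furin, the convertase of the secretory pathway, and makes isoforms with different reactive centre loops. Its level was 129 CPM in the control, with C1 at 188, C2 at 178, C3 at 212, C4 at 122 and C5 at 232, and no strain reached 2-fold as a gene. With only its most abundant transcript it passed as higher in C3 (log2 ratio 1.34) and C5 (1.03). The furin genes Fur1 and Fur2 and the convertase gene amon were also within 2-fold of the control in every strain.

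Spn42Db and Spn42Dc have no role that is stated here. Spn42Db ranged from 4.91 CPM in C5 to 10.9 in C2, and Spn42Dc from 30.5 in C4 to 49.4 in C2 and C5. Spn42De stood at 1.59 CPM in the control, with C1 at 2.53, C2 at 3.37, C3 at 2.40, C4 at 1.92 and C5 at 2.57. Its ratio of 2.12-fold in C2 rests on few counts (log2 interval 0.78 to 1.40) and was lost with plain CPM.

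Spn88Eb, the neighbour of Spn88Ea at 255 bases on the same strand, was lowest in C4. It stood at 22.5 CPM in the control, with C1 at 36.2, C2 at 44.5, C3 at 40.3, C4 at 14.99 and C5 at 47.9. Only C5 passed (2.13-fold, log2 interval 1.01 to 1.17), with C2 just under the threshold at 0.98. Unlike Spn88Ea, it was higher in C2 than in C1. The log2 ratio in C5 was 0.82 with plain CPM.

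Of the remaining measured serpins, Spn55B was highest in the control, at 83.8 CPM. Among the strains C1 was at 60.3, C2 at 46.7, C3 at 79.05, C4 at 70.2 and C5 at 69.7. All 5 strains were below the control, none by 2-fold. Spn47C ranged from 6.97 CPM in C5 to 12.7 in C2 as a gene, which hides a larger difference between its transcripts.

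Read counts were split among isoforms before deposit, so intervals on transcripts leave out the error of that split. Of the serpin genes 11 had more than 1 transcript, with 33 in all and 27 of them at a mean of at least 1 CPM. Spn47C (2R, 10938425 to 10941738) has 3 transcripts. NM_136789 stood at 3.64 CPM in the control, with C1 at 0.192, C2 at 0.333, C3 at 0.155, C4 at 7.29 and C5 at 0.0719. It was present in the control and C4 and nearly absent from the other 4, the split seen in testis RNA. It held 32.3% of the gene's counts in the control, 60.5% in C4 and between 1.03% and 2.62% elsewhere. From estimates rounded to whole counts it was 18.9-fold lower than the control in C1 (log2 interval -5.06 to -3.52), 11.1-fold in C2, 23.03-fold in C3 and 54.6-fold in C5, where about 5.4 counts were left and the interval was -7.40 to -4.53. In C4 it was 2.00-fold higher.

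The transcript NM_001169645 of the same gene did not share that split, and stood at 6.10 CPM in the control, with C1 at 5.34, C2 at 10.1, C3 at 5.55, C4 at 4.38 and C5 at 5.46. NM_001299373 was lowest in C4 (0.376 CPM) and stood between 1.44 and 2.28 CPM in the other libraries. The part of testis RNA in NM_136789 was not tested.

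Spn42Dc showed a partly similar pattern in NM_136401, which stood at 5.25 CPM in the control, with C1 at 0.969, C2 at 2.63, C3 at 4.10, C4 at 12.3 and C5 at 1.39. Its level in C3 was closer to the control than those in C1, C2 and C5. Its share of the gene was 40.3% in C4, 13.8% in the control and 2.20% in C1. In Spn42De the split of counts differed, with NM_136402 at 11.7% of the counts in the control, 88.2% in C2 and 57.5% in C3, from a total of 146 counts in the control and 225 in C2.

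**Figure D5:**
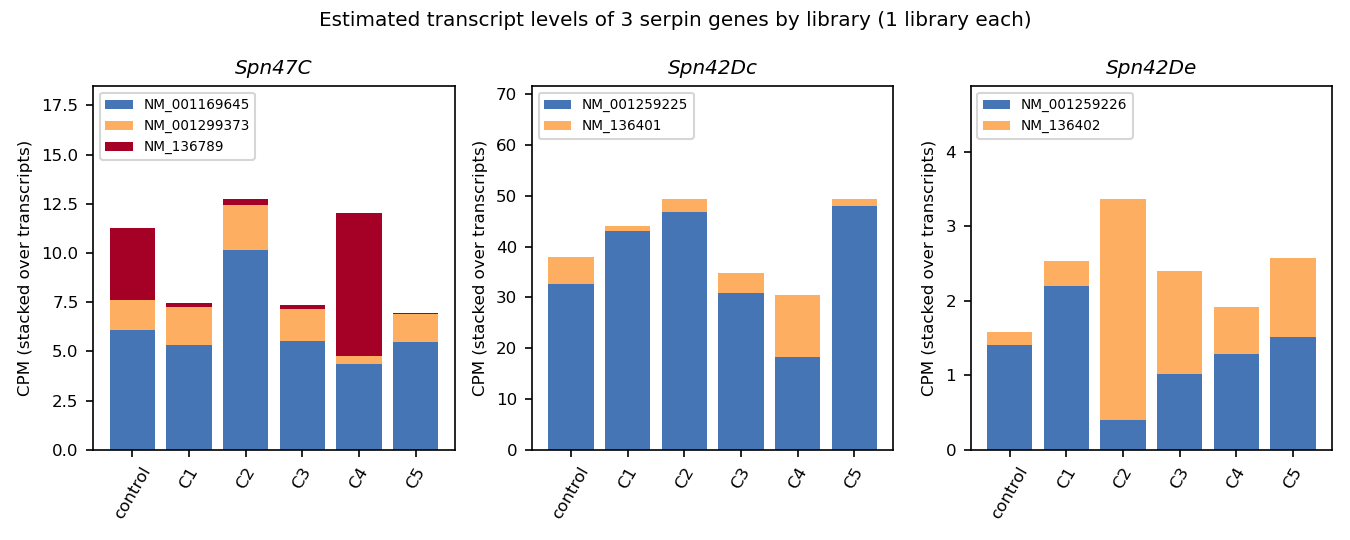
Stacked bars give the estimated CPM of each RefSeq transcript of Spn47C, Spn42Dc and Spn42De by library. NM_136789 of Spn47C is visible in the control (3.64 CPM) and C4 (7.29 CPM) and is 0.333 CPM or less in the other 4 libraries.

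Of the 11 transcripts of Spn42Da, NM_206037 had the highest RPKM in each library. It stood at 32.4 CPM in the control, with C1 at 62.6, C2 at 45.3, C3 at 81.9, C4 at 27.2 and C5 at 66.7. NM_206039 passed as higher in all strains but C4 (37.4 to 42.8 CPM, from 17.4 in the control) and stood at 10.1 in C4. NM_206034 was lower in C4 (14.4 to 4.13 CPM, log2 interval -1.96 to -1.64). NM_165496 was higher in C4 (7.73 to 16.4 CPM). Which reactive loop each transcript encodes was not determined. Among all 23185 transcripts with a mean of at least 1 CPM, 7.94%, 12.8%, 11.9%, 9.08% and 7.30% were higher in C1 to C5. The shares lower were 15.2%, 19.8%, 21.3%, 5.89% and 15.9%. That set, unlike the 27 serpin transcripts, also holds genes with a single transcript. Of the 27 serpin transcripts 1, 4, 6, 4 and 4 were higher and 2, 2, 2, 3 and 2 lower.

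The 11 serpins below a mean of 1 CPM include all 6 members known from adult seminal fluid. Spn28F had 25 counts in the control, 29 in C4, 1 in C1 and 0 in C2, C3 and C5. Its counts were thus nearly all in the control and C4, the libraries with most testis RNA. With the 3 libraries at 0 set to the floor of 3 counts, it was 6.05-fold lower than the control in C2, 6.87-fold in C3 and 6.79-fold in C5. The exact 95% intervals of these ratios had upper log2 limits of -2.19, -2.38 and -2.36. For the single count of C1 the log2 interval of the ratio was -9.85 to -1.88.

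Spn77Bb had 13 counts in the control and 62 in C4, 4.45-fold higher (log2 interval 1.28 to 3.14), and between 6 and 11 in the others. Spn77Bc had 23 and 57 counts in those libraries, 2.31-fold higher in C4 (0.49 to 1.98), and C1 had 25, C2 had 6, C3 had 16 and C5 had 10. Spn75F had 25 counts in C4, 7 in C2 and no more than 2 elsewhere. C4 was the highest library in each. Spn38F and Spn53F had at most 7 and 3 counts in any library. Of 7 accessory gland genes on a marker list, which sum to 1.25 to 5.32 CPM, Acp26Aa was at 0 in 5 libraries. Acp36DE stood at 1.80 CPM in the control, reached 3.29 in C4 and did not exceed 0.0658 elsewhere. Acp63F, the only measured gene of that list, did not share that split. It was lowest in the control (0.608 CPM), with C1 at 3.57, C2 at 1.30, C3 at 5.23, C4 at 1.52 and C5 at 1.17. Acp76A, a seminal serpin that the rule on symbols does not take in, had at most 5 counts.

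Spn31A lay between 44 counts in the control and 83 in C1, a 2.09-fold ratio (log2 interval 0.52 to 1.63). Spn85F had 18 counts in the control, with C1 at 28, C2 at 4, C3 at 24, C4 at 50 and C5 at 16. It shares 273 exonic bases with CG5359 on the opposite strand, at 3.10 to 6.75 CPM, and the strand setting of the counting is not given in the sources used here. Spn28B and Spn28Da had at most 6 and 4 counts.

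The proteases and ligands that serpins act on, or that act beside them, were taken from lists. Of 13 measured genes of the extracellular Toll cascade, C1 had 2 that were at least 2-fold higher, C2 had 6, C3 had 2, C4 had 0 and C5 had 5, and 0 were lower in any strain. Over all measured genes the shares higher were 5.10%, 8.94%, 6.02%, 8.97% and 4.83%, and the shares lower 18.0%, 20.0%, 21.8%, 3.16% and 18.6%, and the counts of the lists that follow stand against the same shares. The median log2 ratios of the 13 genes were 0.54, 0.64, 0.55, -0.05 and 0.88. Several of these calls depend on the scaling. Plain CPM shifts every log2 ratio by -0.20, -0.30, -0.13 and -0.27 in C1, C2, C3 and C5. With it PGRP-SA (log2 ratio 1.15) would not pass in C1, nor modSP (1.10) in C3. The same holds for psh (1.20), Hayan (1.28) and spz (1.12) in C2, and for spirit (1.03) and GNBP3 (1.14) in C5. Counts of the other lists carry the same limit. SPE, the protease that cleaves Spätzle, stood at 2.78 CPM in the control, with C1 at 8.50, C2 at 8.65, C3 at 8.12, C4 at 3.89 and C5 at 12.05. It passed in all strains but C4.

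psh encodes Persephone, the protease whose Toll activation Necrotic restrains. It stood at 10.4 CPM in the control, with C1 at 13.4, C2 at 23.99, C3 at 8.29, C4 at 6.76 and C5 at 30.4. The 2 strains in which psh passed, C2 and C5, were those in which nec did, and the protease gene Hayan passed in the same 2. Both nec calls were lost with plain CPM. The log2 ratios of psh and Hayan in C2 were 1.20 and 1.28, and plain CPM shifts every log2 ratio of C2 by -0.30. In C5 they were 1.54 and 1.30, with a shift of -0.27. ea, which encodes the Spn27A target Easter, had 4.91 CPM in the control against 13.5 in C2, and lay at 5.48 to 7.75 in the other strains. PGRP-SA, a recognition protein of the pathway, was above the control (17.3 CPM) in every strain. It passed in C1 (38.4) and C2 (53.4), and stayed under the threshold in C3 (33.2), C4 (29.8) and C5 (33.7).

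Of 10 measured melanization genes, 3, 3, 1, 0 and 4 were higher in C1 to C5 and 0, 1, 0, 1 and 1 lower. PPO2, a prophenoloxidase of crystal cells, stood at 29.5 CPM in the control, with C1 at 98.5, C2 at 135, C3 at 16.9, C4 at 40.3 and C5 at 96.1. PPO1 was high in the same 3 libraries (45.2, 70.9 and 42.8 CPM, from 13.9), and both genes were highest in C2 and lowest in C3. ple, the tyrosine hydroxylase gene of cuticle tanning and melanization, ran the other way in every strain but C1. It stood at 1384 CPM in the control, with C1 at 3581, C2 at 24.2, C3 at 6244, C4 at 811 and C5 at 647. In C1 ple passed as higher, as did PPO1 and PPO2. Hayan, a protease of both cascades, had 34.3 CPM in the control against 82.97 in C2 and 84.2 in C5.

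Of 8 measured genes of the Toll pathway inside the cell, dl was higher in C3 (38.4 to 79.8 CPM), Dif lower in C4 (40.8 to 18.3 CPM), and no other passed. Of 9 clotting genes, 2, 7, 0, 0 and 4 were higher and 0, 0, 2, 2 and 0 lower in C1 to C5, with the C3 share near the 21.8% of all genes. Hml, a clotting gene of haemocytes, had 16.7 CPM in the control against 92.3 in C2, 70.6 in C5 and 5.23 in C3. Among 6 measured genes of other protease inhibitors and thioester proteins, Tep1 was higher in all 5 strains (28.2 to 46.8 CPM, from 10.9 in the control). The lists overlap. Hayan is on the Toll and melanization lists, PPO1 and PPO2 are also haemocyte markers and ple is also a cuticle marker. The clotting list shares Fbp1 and the Lsp1 genes with the fat body list and Hml with the haemocyte list.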

How the data were processed

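Total RNA was extracted with TRIzol, and stranded TruSeq libraries made after ribosomal RNA removal were sequenced as paired ends, per the labels' protocols. Per the submitters' processing notes, the build was dm6 and the tools were TopHat, Partek and bcl2fastq. Versions, roles and strand setting: not given in the sources used here. The authors deposited expected counts (estimated reads per RefSeq transcript, shared among isoforms, unscaled) and RPKM values for 34966 transcripts per library. RPKM served for levels between genes and as an alternative.

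Of the transcripts, 33027 (94.5%) matched a gene of the Release 6 annotation by RefSeq identifier. Their counts were summed per gene and rounded. Gene symbols and coordinates are of that assembly, the same as dm6, and strands and exons of Ensembl's annotation of it. No genome or protein sequence was used here.

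TMM factors came from edgeR 4.0.16 in R 4.3.3 at 1.09 for the control, then 0.955, 0.890, 0.998, 1.19 and 0.904 for the strains C1 to C5. Intervals used SciPy 1.17.1, and alternative size factors DESeq2 1.42.0. Counts below 3 were set to a floor of 3 counts for a fold, between 0.0304 CPM (C4) and 0.0449 CPM (C2). Intervals and floors cover counting error only.

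The members and gene lists were chosen with earlier results of these data known. All members were accounted for. Measured members that passed the rule in a strain are given in all libraries, and up to 4 genes with the largest ratios are named per list. Spn27A, Spn42Da, Spn55B, transcripts, Eig71Ea, Eig71Ee and genes of the lists beyond those 4 were described after their values were seen.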

Additional observations from a re-analysis of the deposited data

How the results depend on the processing

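No paired analysis was possible because each genotype had 1 library, and for the same reason no replicate could be left out. Counts of serpins past the size rule were recomputed under 8 alternatives set with the main rule and 1 chosen after seeing the data. DESeq2 size factors, a minimum mean CPM of 5 and the set averaging 1 CPM or more in C1, C2, C3 and C5 kept each count within 1.5 times. With plain CPM 0 serpins were higher in C1, 1 in C2 and 2 in C5, and 3 were lower in C2. The deposited RPKM gave 0, 1 and 2 higher in C1, C2 and C5, 3 lower in C2 and 1 in C5 (Spn47C). With no filter on low counts 2 were higher in C1 and 6 in C4, and 1, 4, 2 and 1 lower in C1, C2, C3 and C5, all additions having a mean below 1 CPM. At a fold of at least 1.5, 8, 5, 9 and 7 were higher in C1, C2, C3 and C5, and 1, 3, 1, 2 and 1 lower in C1 to C5. At a fold of at least 3, 0, 1, 1 and 0 were higher in C1, C2, C3 and C5. With the most abundant transcript of each gene 2 were lower in C2, Spn42Da replaced Spn88Ea among the higher serpins of C3 and joined those of C5, and the log2 ratio of Spn42De in C2 turned from 1.09 to -1.79. The median log2 ratio of C4, -0.01, became 0.01 with DESeq2 size factors, 0.11 with plain CPM, 0.06 with RPKM and 0.09 with no filter. The other medians kept their sign, but fell from 0.42 to 0.12 in C2 and from 0.49 to 0.22 in C5 with plain CPM, to 0.11 and 0.22 with RPKM, from 0.60 to 0.39 in C1 with RPKM, and with no filter to 0.21 in C3 and 0.28 in C5. Depth limits the serpins below 1 CPM, for which folds use a floor of 3 counts.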

Other observations

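The split of counts between isoforms was the same in every library for 3 low serpins. Spn77Bc gave 58.5% of its counts to NM_001275174 in all 6 libraries. Spn28B gave 92.4% to NM_001273280 in the 5 libraries where it had counts, and Spn38F 56.1% to NM_001299183 in the 4 where it had counts. For these genes the split holds no information on isoforms. The splits of Spn47C, Spn42Da, Spn42Dc and Spn42De varied between libraries.

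asRNA:CR44169 overlaps exons of Spn42Da and Spn42Db on the opposite strand and stood at no more than 0.823 CPM in any library. CG12828, opposite the exons of Spn43Aa, was at no more than 0.0132 CPM. CG42542 shares 6 exonic bases with Spn88Ea and stood at 36.99 to 71.9 CPM.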
